A study of Caenorhabditis elegans with 2 samples.

Results

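The peptide genes described here are the protein-coding genes of C. elegans named flp, nlp or ins with a number, together with daf-28. They were chosen by name alone in the Ensembl annotation, and 141 of 19973 protein-coding genes met the rule: 31 flp genes, 71 nlp genes and 39 insulin-like genes (the ins genes and daf-28). The data are peak lists from chromatin immunoprecipitation and sequencing (ChIP-seq) of EOR-1, a zinc finger transcription factor with a BTB domain. The animals were whole L3 larvae, males and females pooled, of strain OP81, with the genotype unc-119(ed3) III and wgIs81, a transgene insertion that makes eGFP-tagged EOR-1, which both replicates carry. There was 1 group with 2 biological replicates and no other genotype, stage or treatment, so every value below is a description of binding candidates in this group. The labels do not name the promoter or the cells in which the tagged protein was made, and whole larvae do not separate neurons from other tissues.

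The flp genes encode precursors of FMRFamide-like peptides, the ins genes and daf-28 encode insulin-like peptides, and the nlp genes encode other neuropeptide-like proteins. The precursors are cut in dense core vesicles, and the peptides released act mostly through G protein-coupled receptors or, for the insulin-like peptides, through the receptor tyrosine kinase DAF-2. They are best known from neurons, but several nlp and ins genes are also used in the intestine or the epidermis. EOR-1 is itself known for roles in Ras and Wnt signalling and in late neuron differentiation.

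A candidate is an entry of the list called on the pooled reads of both replicates, and it was counted for a gene when its summit lay inside the gene or within 2000 bp of a start of any of the gene's transcripts. The pooled list holds 6708 candidates on ce11, ranked by the authors' signal value for each peak, with 2488 peaks in the list of replicate 1 and 2610 in that of replicate 2. Per the deposited file lists these lists hold background entries besides peaks, so a weak candidate is not a called site. A separate list of 33 peaks passed the authors' threshold on the irreproducible discovery rate (IDR), called thresholded peaks below. Read depth is unknown. The 95% intervals of shares are exact (Clopper-Pearson) and reflect only how many genes or peaks were counted.

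Most peptide genes, like most protein-coding genes, had no candidate, and in both sets few had a strong or replicated one. Of the 141 peptide genes, 25 had a pooled candidate (17.7%, interval 11.8 to 25.1), against 5674 of the 19973 protein-coding genes (28.4%), a share above that interval. With each candidate given only to its nearest start, 20 peptide genes had one (14.2%, interval 8.88 to 21.1), and the share of all genes, then 19.0%, lay inside the interval. It also lay inside the interval in either replicate's own list. A candidate among the 1000 strongest lay at 4 peptide genes (2.84%, interval 0.778 to 7.1), against 5.83% of all protein-coding genes, which lies inside the interval. A candidate with a summit in both replicate lists within 200 bp lay at 3 peptide genes (2.13%, interval 0.441 to 6.09), against 3.16% of all genes, also inside the interval. No peptide gene had a thresholded peak, and 0 of 141 has an exact upper limit of 2.58% (2.13% by a floor of 3 counts), against 0.200% of all genes.

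**Figure D1:**
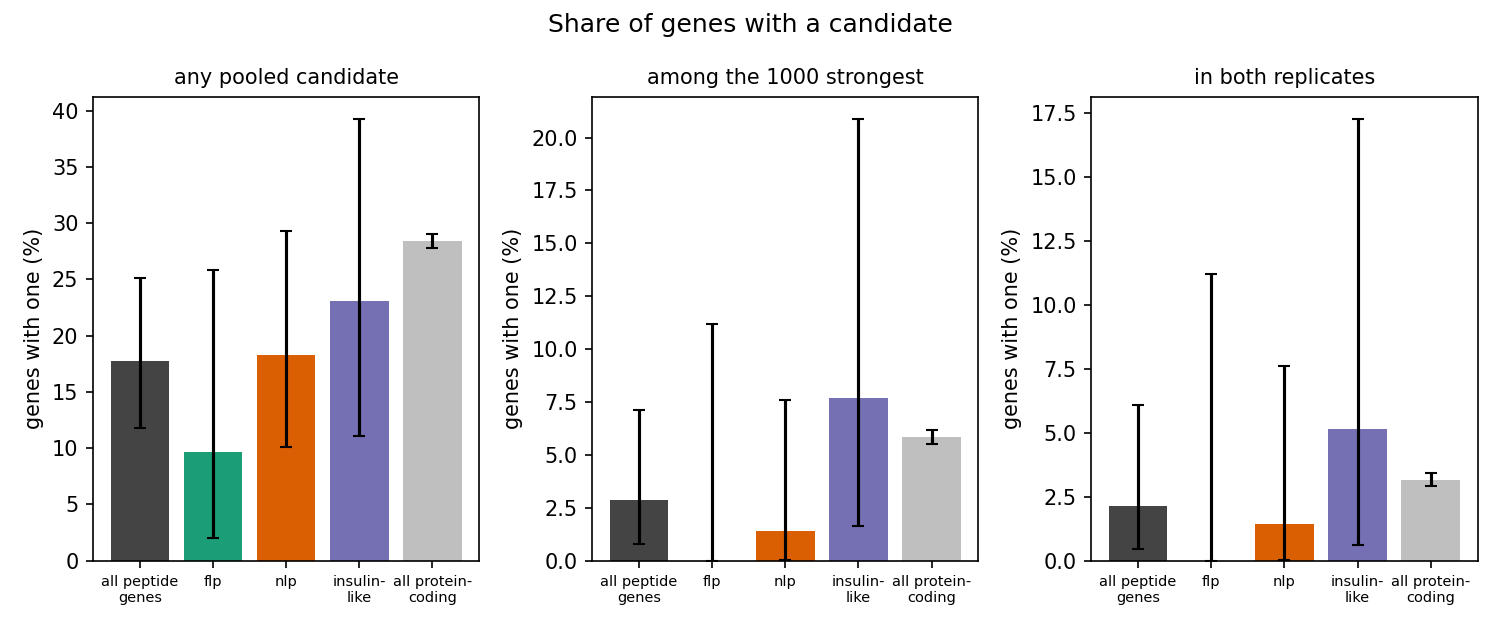
Share of genes (%) with any pooled candidate, with a candidate among the 1000 strongest and with a candidate in both replicates, for all 141 peptide genes, each family and all 19973 protein-coding genes; bars are shares and whiskers exact 95% intervals. The peptide genes stand at 17.7%, 2.84% and 2.13% beside 28.4%, 5.83% and 3.16% of all protein-coding genes.

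Peptide genes are short, and any part of gene length in these shares was not tested. Their median length was 903 bp, against 2027 bp over all protein-coding genes. Counting only summits within 2000 bp of a start, with the gene body left out, 25 of 141 peptide genes had a candidate (17.7%, interval 11.8 to 25.1). The share of all genes was then 26.3%, above that interval. Within length classes, set after the values were seen, the share was 18.4% of 76 peptide genes under 1000 bp (interval 10.5 to 29), against 23.5% of all 3651 genes of that length. From 1000 bp to below 2000 bp it was 11.1% of 36 peptide genes (interval 3.11 to 26.1), against 21.3% of 6205 genes. At 2000 bp or longer it was 24.1% of 29 peptide genes (interval 10.3 to 43.5), against 34.5% of 10117 genes. The share of all genes was the higher one in each class and lay within the interval of the peptide genes in each. From a gene's start to the nearest summit the median distance was 8229 bp for peptide genes (quartiles 3572 and 13121 bp), against 6181 bp for all genes (1826 and 14691 bp).

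The families had shares in the order insulin-like, nlp and flp, with intervals that overlap. Of the 39 insulin-like genes 9 had a candidate (23.1%, interval 11.1 to 39.3). Of the 71 nlp genes 13 had one (18.3%, interval 10.1 to 29.3), and of the 31 flp genes 3 (9.68%, interval 2.04 to 25.8). The 28.4% of all genes lay inside the insulin-like and nlp intervals and above that of flp, and the difference between families was not tested. A candidate among the 1000 strongest lay at 3 insulin-like genes (7.69%, interval 1.62 to 20.9) and 1 nlp gene (1.41%, interval 0.0357 to 7.6), with the 5.83% of all genes inside both intervals.

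The 25 genes had 27 distinct candidates between them. Their median rank was 3472, where the median of the whole list is 3354.5, and their median signal value was 3.06, against 3.10 for all pooled candidates. The 1000 strongest held 4 of the 27 (14.8%, interval 4.19 to 33.7), against 14.9% of all candidates. Both replicate lists held a summit within 200 bp for 3 of the 27 (11.1%, interval 2.35 to 29.2), against 7.8% of all candidates. A summit in 1 replicate alone was found for 11, namely 4 in replicate 1 and 7 in replicate 2, and 13 of 27 were in neither list (48.1%), against 48.2% of all candidates. The pooled list was called on the same reads, so this support is not independent of it.

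**Figure D2:**
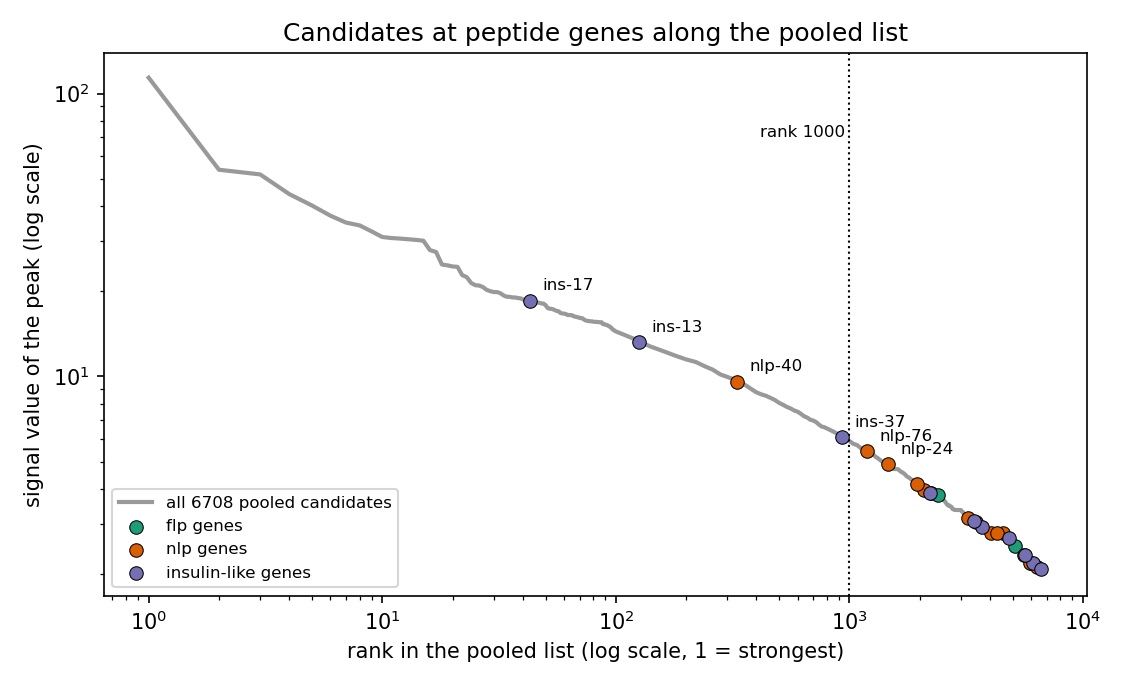
Signal value (log scale) against rank in the pooled list (log scale) for all pooled candidates (grey line) and for the 27 candidates at peptide genes (points, by family). Only ins-17, ins-13, nlp-40 and ins-37 stand before rank 1000, and the other points lie between ranks 1187 and 6598.

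The 201 bases around the summit (100 on either side) are shown for 5 candidates that carry the account below, all read from the plus strand of the RefSeq genome (WBcel235, ce11). They are the strongest candidate at a peptide gene, the strongest one in both replicates, the one at a peptide gene nearest to rank 1000 among the 1000 strongest, the strongest one upstream of a peptide gene, and the strongest at an flp gene. In the line of ins-13 the capitals mark the annotated spliced leader gene sls-2.2. In the other lines capitals mark matches to GAGAGA on either strand, which in the plus strand reads TCTCTC when the match is on the minus strand.
ins-17, chrIII:4475538-4475738: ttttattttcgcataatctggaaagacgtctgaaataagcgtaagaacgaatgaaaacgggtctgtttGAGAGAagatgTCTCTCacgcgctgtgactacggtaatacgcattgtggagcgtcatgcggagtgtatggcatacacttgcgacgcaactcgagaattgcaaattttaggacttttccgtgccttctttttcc
ins-13, chrII:5543567-5543767: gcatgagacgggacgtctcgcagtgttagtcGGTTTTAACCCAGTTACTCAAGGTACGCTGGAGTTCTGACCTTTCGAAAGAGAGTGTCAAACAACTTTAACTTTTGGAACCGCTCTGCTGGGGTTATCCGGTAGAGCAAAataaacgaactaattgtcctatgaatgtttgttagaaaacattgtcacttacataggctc
ins-37, chrII:13834722-13834922: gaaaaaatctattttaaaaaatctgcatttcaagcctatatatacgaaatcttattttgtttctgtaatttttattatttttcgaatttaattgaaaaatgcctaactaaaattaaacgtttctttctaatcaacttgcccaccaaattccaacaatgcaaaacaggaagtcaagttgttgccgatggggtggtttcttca
nlp-24, chrV:11615838-11616038: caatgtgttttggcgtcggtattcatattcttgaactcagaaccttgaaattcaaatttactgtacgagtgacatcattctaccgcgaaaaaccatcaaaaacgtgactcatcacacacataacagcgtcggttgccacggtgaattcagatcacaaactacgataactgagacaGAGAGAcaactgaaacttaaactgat
flp-18, chrX:3020437-3020637: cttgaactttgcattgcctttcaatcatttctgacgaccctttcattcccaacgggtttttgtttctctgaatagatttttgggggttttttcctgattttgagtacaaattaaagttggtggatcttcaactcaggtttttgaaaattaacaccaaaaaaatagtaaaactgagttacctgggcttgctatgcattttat

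The strongest candidate counted for a peptide gene lay between the genes ifet-1 and rps-1, with ins-17 beyond the start of rps-1. Its summit on chromosome III (4475638, peak 4475436 to 4475839, signal 18.5, rank 43) was 488 bp from ifet-1, whose product binds eIF4E, and 280 bp upstream of the start of rps-1, which encodes a protein of the small ribosomal subunit. The insulin-like gene ins-17 (4476918 to 4477572, minus strand) was counted because its start lay 1934 bp away, with the summit 1280 bp past its 3′ end. The summit also fell inside F56F3.10, an annotated noncoding RNA of 207 bp. Replicate 2 had a summit 14 bp away (rank 58, signal 8.47), and replicate 1 had none within 200 bp. The window holds GAGAGA on the plus strand starting 32 bases before the summit and on the minus strand starting 21 bases before it.

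The next candidate, counted for ins-13, lay on a spliced leader RNA gene. Its summit on chromosome II (5543667, peak 5543465 to 5543868, signal 13.2, rank 126) was inside sls-2.2 (5543598 to 5543707), a gene of 110 bp for an SL2 RNA, the spliced leader that is joined to downstream messages of operons. The insulin-like gene ins-13 (5544512 to 5544864, minus strand) was the nearest protein-coding gene by start, 1197 bp away, with the summit 845 bp past its 3′ end. Replicate 2 had this candidate at rank 35 (signal 9.72, summit 130 bp away), and replicate 1 at rank 1935 (signal 2.48, summit 2 bp away), so it was strong in replicate 2 and weak in replicate 1. The neighbouring gene sls-2.3 (5544164 to 5544273) had no candidate within 200 bp and differs from sls-2.2 at 3 of 110 bases. The sources used here do not give the placement of reads from such copies, and 3 of 18 sls-2 genes had a pooled candidate within 200 bp.

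A further near-identical copy had a candidate too. The gene sls-2.4, which differs from sls-2.2 at 4 of 110 bases, had a candidate of rank 32 (signal 19.7), and sls-2.5 had one of rank 4432. Among the 27 candidates at peptide genes, 2 had a tRNA, rRNA, snRNA or snoRNA gene within 200 bp (7.41%, interval 0.91 to 24.3), against 3.25% of all candidates. The other was the weaker candidate at nlp-4 (rank 3472), 54 bp from the snoRNA gene F59C6.15.

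The third was found in both replicates and had an nlp gene as its nearest protein-coding start. Its summit on chromosome I (17071, signal 9.59, rank 331) lay 234 bp past the 3′ end of nlp-40 (11495 to 16837, plus strand) and 1968 bp from the nearest nlp-40 start. The gene nlp-40 encodes an intestinal peptide that sets off the expulsion step of the defecation motor program through the receptor AEX-2. The next gene, rcor-1, a CoREST homologue, ends 413 bp further on from the opposite side, so the candidate stood between 2 gene ends. It ranked 1154 in replicate 1 (signal 3.10, 97 bp away) and 402 in replicate 2 (signal 4.52, at the same summit). It was the only candidate at a peptide gene with the 8-base sequence AGACGCAG within 100 bp, and it also held GAGAGA.

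The fourth lay past the 3′ end of ins-37, an insulin-like gene on chromosome II (13835101 to 13836107, minus strand). Its summit (13834822, signal 6.09, rank 930) was 279 bp beyond the gene end, 1285 bp from the ins-37 start and 1191 bp upstream of F08G2.5. The noncoding RNA gene F08G2.12 lay 65 bp from the summit. Ranks were close in the replicates, at 519 in replicate 1 (signal 4.58) and 536 in replicate 2 (signal 4.03), although the summit of replicate 1 was 182 bp away. A second, weak candidate at ins-37 (rank 6598) had the same replicate 1 peak within 200 bp. The candidate at rank 1000 had a signal value of 5.899, and the first peptide gene past that limit was nlp-76 at rank 1187 (signal 5.445).

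The 4 strongest candidates all lay past the 3′ end of the peptide gene and over 1000 bp from its start. Over the 29 pairs of gene and candidate, 12 were upstream of the start (41.4%), 7 inside the gene (24.1%) and 10 past the gene end (34.5%). Over all protein-coding genes 50.5% were upstream, 41.8% inside and 7.64% past the end, but a summit past the end can only be counted for a gene that ends within the window. Among genes under 1000 bp the share past the end was 31.2% of 16 pairs for peptide genes and 29.2% of 1122 pairs for all genes. Of the pairs with the 1000 strongest candidates, 7.24% of 1353 were past the end over all protein-coding genes. For all genes under 1000 bp it was 26.0% of 196, a length class that holds 2 of the 4 pairs at peptide genes. In 10 of the 29 pairs the summit was within 500 bp of the gene's own start, and in 15 it was 1000 bp or more away. The shares of all pairs at these distances are not given here.

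**Figure D3:**
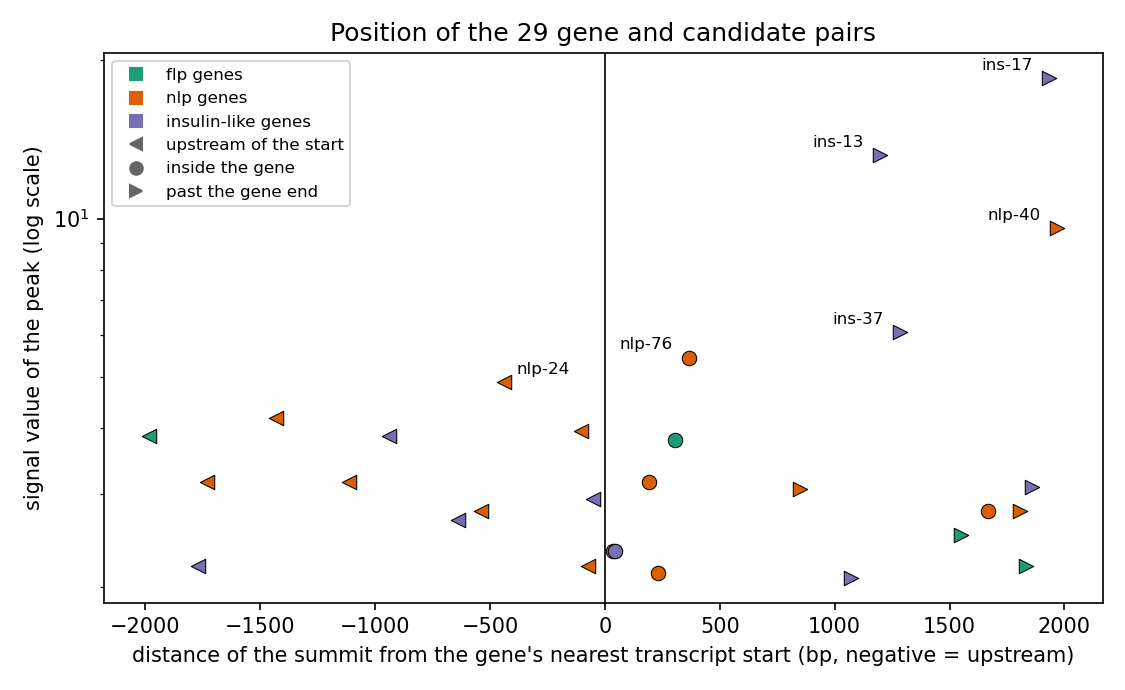
Distance of each summit from the nearest transcript start of the peptide gene (bp, negative is upstream) against signal value (log scale), for 29 pairs of gene and candidate, with colours for families and symbols for the position. The 4 points above a signal of 6 all lie over 1000 bp downstream of the start, past the gene end.

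No candidate within 1000 bp of the start of a peptide gene was among the 1000 strongest. With a start distance of 500 bp and the gene body kept, 3.64% of all genes had one of these. The peptide genes had 0 of 141 (interval 0% to 2.58%). The strongest upstream one was at nlp-24 on chromosome V (11616376 to 11616828, plus strand), a gene for a YGGW-type peptide, 438 bp before the start (signal 4.89, rank 1462). It had GAGAGA on the plus strand 75 bases after the summit, but no summit within 200 bp in either replicate. The strongest one inside a peptide gene was in an intron of nlp-76 on the X chromosome, 366 bp after the start (signal 5.445), with replicate 2 at rank 228 and no summit in replicate 1. A candidate 103 bp upstream of nlp-4 (rank 2091, signal 3.96) was in replicate 2 at rank 2527. The candidate 1431 bp upstream of nlp-71 (rank 1949, signal 4.17) had replicate 1 at rank 800, and its nearest start was that of exos-2, a subunit gene of the RNA exosome, at 465 bp. Within 100 bp of their own starts lay only candidates of rank 3707 or weaker, at ins-18 (50 bp upstream, signal 2.93), nlp-52 (36 bp inside, signal 2.34), ins-2 (43 bp inside, signal 2.34) and nlp-82 (73 bp upstream, signal 2.19), none of them with a summit in a replicate list.

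Few flp genes had a candidate, and none of theirs was in both replicates. The gene flp-18 on the X chromosome (3012182 to 3018555, minus strand), whose peptides are ligands of the receptor NPR-1, had 2. The first was 1982 bp upstream (rank 2240, signal 3.86), with a summit in replicate 2 alone (rank 1842). The second lay in an intron, 306 bp after a start (rank 2391, signal 3.805), with a summit in replicate 1 alone (rank 2277). The flp-23 candidate was 124 bp past the gene end (rank 5100, signal 2.51) and in replicate 2 only (rank 1691). The candidate at flp-17, a peptide gene of the BAG neurons that acts on egg laying through EGL-6, lay 146 bp past the gene end (rank 5993, signal 2.19) and in neither replicate. Just outside the distance limit stood flp-32 at 2022 bp (rank 5210), nlp-68 at 2064 bp (rank 3503) and flp-20, used in touch neurons, at 2166 bp. The flp-20 neighbour was a strong one (rank 237, signal 10.9, in both replicates), and its nearest start was that of oga-1, an O-GlcNAcase gene.

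**Figure D4:**
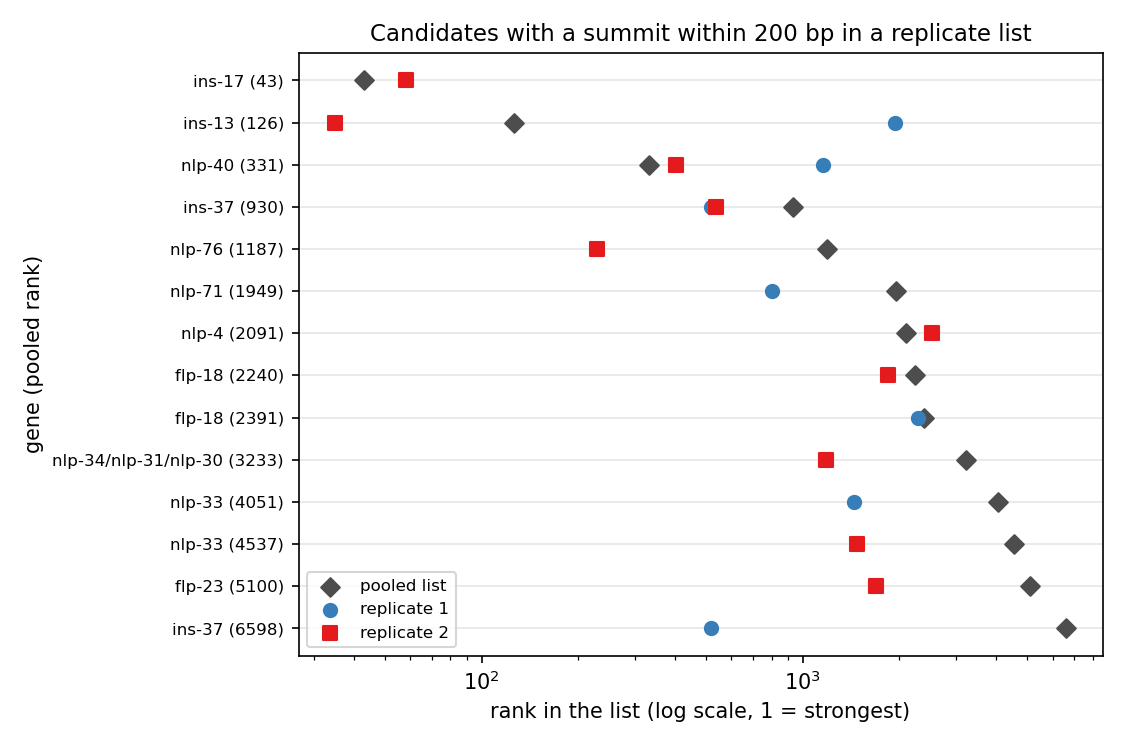
Ranks (log scale, 1 is the strongest) in the pooled list and in each replicate list for the 14 candidates at peptide genes with a summit within 200 bp in a replicate list, in the order of the pooled rank. Both replicates have a symbol for ins-13 (ranks 1935 and 35), nlp-40 (1154 and 402) and the stronger ins-37 candidate (519 and 536), and 1 replicate alone for the others.

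Peptide genes with known functions were counted in 6 short lists, and the interval of each of these lists held the 28.4% of all protein-coding genes. The 5 sleep peptide genes flp-11, flp-13, flp-24, nlp-8 and nlp-22 had none (interval 0% to 52.2%), and their nearest summits lay between 3975 bp (flp-11) and 36693 bp (flp-24) from a start. The 4 insulin-like genes listed here as agonists of DAF-2, daf-28, ins-4, ins-6 and ins-7, had none (interval 0% to 60.2%). The nearest summit was 2930 bp from ins-4 and 82408 bp from daf-28, the greatest distance of the 141 peptide genes. Of the 2 genes listed here as antagonists, a list that need not be complete, ins-18 had the weak candidate given above and ins-1 had none (11269 bp). Among 6 peptide genes of egg laying and locomotion (flp-1, flp-10, flp-17, nlp-3, nlp-7 and nlp-12) only flp-17 had one (interval 0.421% to 64.1%). Among 4 genes of arousal and of NPR-1 ligands (flp-2, flp-18, flp-20 and flp-21) only flp-18 had one (interval 0.631% to 80.6%). Among 3 intestinal or metabolic peptide genes (flp-7, nlp-40 and ins-11) only nlp-40 had one (interval 0.84% to 90.6%).

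The antimicrobial YGGW peptide genes, several of which are induced in the epidermis by infection or wounding, had a candidate in 5 of 10 cases (interval 18.7% to 81.3%), with 28.4% of all genes beside it. These were nlp-24, nlp-30, nlp-31, nlp-33 and nlp-34, and 3 of them shared 1 candidate. That candidate on chromosome V (3980247, rank 3233, signal 3.15) lay in the coding sequence of nlp-31, 192 bp after its start, and was counted for nlp-34 (1113 bp) and nlp-30 (1733 bp) as its neighbours. Replicate 2 had it at rank 1182 (signal 2.91) and replicate 1 had none. The gene nlp-29 of the same cluster, 4178 bp from the nearest summit, had none, nor had nlp-25, nlp-27, nlp-28 and nlp-32. Both candidates of nlp-33 were weak (ranks 4051 and 4537, both with a signal value of 2.78), with 1 found in replicate 1 and the other in replicate 2, and both had the start of another gene nearer. These genes are paralogues, some of them in a cluster, and the sources used here do not say where reads from similar copies went.

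The remaining candidates at peptide genes had ranks past 2000 and no summit within 200 bp in either replicate. For insulin-like genes these were ins-27 (938 bp upstream, rank 2222, signal 3.86), ins-10 (rank 3429, signal 3.09), ins-39 (639 bp upstream, rank 4810) and ins-24 (1770 bp upstream, rank 6080). The ins-10 summit lay in a coding exon of vps-39, 1858 bp from the ins-10 start. For nlp genes they were nlp-14 (in a coding exon, rank 4275, signal 2.78) and nlp-21 (in an intron, rank 6327). At ins-39 the list of replicate 1 had a summit (1345271) just over 200 bp from the pooled one (1345060).

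A pair of sequences was searched within 100 bp of the summits. GAGAGA was present on either strand in 4 of 27 candidates (14.8%, interval 4.19 to 33.7), at ins-17, nlp-40, nlp-24 and the weaker nlp-33 candidate, against 26.9% of all pooled candidates, inside that interval. The 8-base AGACGCAG, found earlier in these same peaks and present in 16.8% of the 1000 strongest, was present in 1 of 27 (3.7%, interval 0.0937 to 19.0), against 7.13% of all. The pair can share end bases, and a match is a description of letters, not of a site. Past rank 1000, GAGAGA was in 2 of 23 candidates at peptide genes (8.7%, interval 1.07 to 28), against 23.6% of all, and AGACGCAG in 0 of 23, against 5.43%. Around the starts themselves, GAGAGA lay within 100 bp for 21 of 141 peptide genes (14.9%) and 16.7% of all genes, and AGACGCAG for 0 of 141 and 2.12%. The median GC content of the 201-base windows was 34.8% at peptide genes and 40.3% over all candidates, and its part in these shares was not tested.

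The X chromosome holds 34 of the peptide genes. There 4 of 34 had a candidate (11.8%, interval 3.3 to 27.5), against 31.9% of all genes of the X chromosome, which is above that interval. Of these X-linked peptide genes 13 were flp, 19 nlp and 2 insulin-like genes, and those with a candidate were flp-18, nlp-14, nlp-76 and ins-39. On chromosome V the peptide genes had the higher share, with 6 of 24 (25%, interval 9.77 to 46.7) against 20.8% of all genes, inside that interval. Among these 6, nlp-30, nlp-31 and nlp-34 were counted through 1 shared candidate, so the order there rests on counting it for each. The shares on the other chromosomes were 10.5% to 26.3% of peptide genes, against 26.6% to 35.9% of all genes, each inside the interval of its peptide genes. The chromosome shares were compared after the values were seen and were not tested.

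**Figure D5:**
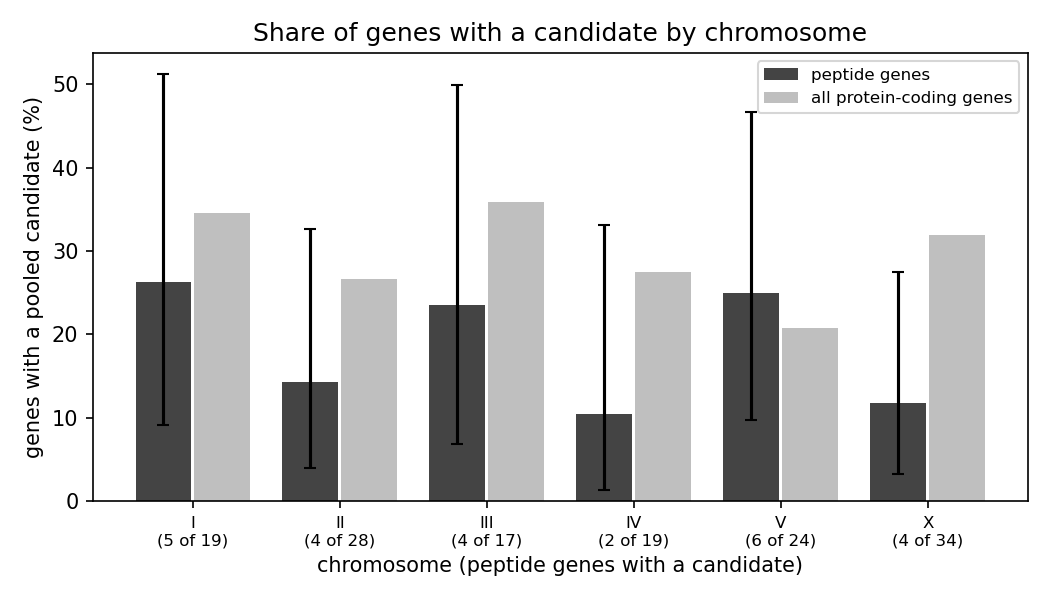
Share of genes (%) with a pooled candidate on each chromosome, for peptide genes (dark bars, with exact 95% intervals and counts under the axis) and all protein-coding genes (light bars). The X chromosome has 11.8% of its peptide genes with a candidate beside 31.9% of its genes, and chromosome V has 25% beside 20.8%. On chromosome V nlp-30, nlp-31 and nlp-34 share 1 candidate.

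The replicate lists were also read on their own. The list of replicate 1 had a peak at 12 peptide genes (8.51%), against 12.7% of all protein-coding genes, and that of replicate 2 at 13 (9.22%), against 13.2%. Both lists named 6 of these genes, and the share of all genes named by both is not given here. At nlp-4, nlp-33 and flp-18 the peaks of the lists lay at different places, for nlp-4 with summits at 10516439 and 10518162. At nlp-40, ins-13 and ins-37 both lists had a summit within 200 bp of the same pooled candidate. Of the 12 genes from replicate 1, 6 had peaks with no pooled summit within 200 bp, namely flp-25, ins-39, nlp-4, nlp-18, nlp-56 and nlp-58, all with signal values between 2.186 and 2.502. In the list of replicate 2, 2 of 13 genes had such a peak, ins-37 (rank 660, signal 3.786, beside the peak that matched) and ins-27 (signal 2.499). The ins-39 summit of replicate 1 (1345271) and this ins-37 summit (13834618) lay just over 200 bp from pooled summits at 1345060 and 13834822. The share of all genes with such an unmatched peak is not given here, so neither count sets peptide genes apart.

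Genes that make, release and read the peptides were counted in the same way, beside 28.4% of all protein-coding genes, or 26.3% by starts alone. These lists were chosen with earlier results of these data known, so their shares are a description. Of 9 processing genes 3 had a candidate (interval 7.49% to 70.1%), the proprotein convertase gene egl-3 (rank 861, signal 6.36, 1202 bp upstream), the carboxypeptidase gene egl-21 (rank 2146) and the convertase gene bli-4 (rank 2306). Of 7 genes of dense core vesicle release, with a median length of 10278 bp, 5 had one (interval 29% to 96.3%), or 4 by starts alone, led by unc-108, a Rab2 gene (rank 448, signal 8.51), and rund-1 (rank 710, signal 6.92, in both replicates). Of 102 peptide receptor genes 20 had one (19.6%, interval 12.4 to 28.6), or 13 by starts alone, against 26.3% of all genes by starts alone. They were led by tkr-3 (rank 1607), npr-5 (rank 1708) and npr-4 (rank 1983). These candidates lay 6428, 4156 and 4145 bp from the nearest start of their gene and were counted through the gene body. The tkr-3 summit had the start of AC7.3 nearest. No receptor gene had one among the 1000 strongest (5.83% of all genes) or in both replicates (3.16%). Of 7 further peptide ligand genes only ntc-1, for the oxytocin-like nematocin, had one (rank 4596).

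Insulin signalling genes, which act downstream of these peptides, included strong and replicated candidates. Of 11 insulin signalling genes 8 had a candidate (72.7%, interval 39.0 to 94.0), against 28.4% of all protein-coding genes. By starts alone it was the same number, against 26.3% of all genes. With the gene body counted, 4 had one among the 1000 strongest (5.83% of all genes) and 4 had one in both replicates (3.16%). The kinase genes akt-2 (rank 231, signal 11.01) and akt-1 (rank 396, signal 8.82) and the receptor gene daf-2 (rank 696, signal 6.99) led them. The daf-2 candidate lay 4630 bp from the nearest daf-2 start and was counted through the gene body. The insulin signalling genes are long, with a median of 7281 bp against 655 bp for the insulin-like genes, and the difference between the lists was not tested. Of all protein-coding genes of 2000 bp or longer, 34.5% had a candidate. This list was chosen with earlier results of these data known, so its shares are a description and do not measure an excess.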

How the data were processed

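EOR-1 ChIP-seq of whole L3 larvae gave peak lists in the narrowPeak format for 2 biological replicates of 1 group, numbered from the labels. Per the deposited file lists, the authors listed peaks and background for each replicate and for the pooled reads and made the thresholded list by IDR. The deposited signal value of each peak, a score of the peak caller, was used as it stands. The sources used here name neither its normalization nor the aligner, the peak caller, any version or the IDR cutoff. The deposited −log10 q-value was not used for ranking, because 784 pooled candidates share its maximum of 3.20. The ce10 lists were not analysed here.

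Summits on ce11 were placed on the WBcel235 annotation of Ensembl release 115, and bases were read from the RefSeq sequence of that assembly. Coordinates are 1-based. Peaks were ranked by signal value within a list. Python 3.11.15, pandas 2.3.3 and SciPy 1.17.1 were used, and the placement of summits was checked on placed positions with known answers. With 1 group no test was run: each count is given beside the same count over all protein-coding genes or all pooled candidates. Alternatives covered the start distance, the gene body, the nearest start, the number of strongest candidates, the match between summits, the sequence window and single replicate lists.

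Named were the 10 best-ranked genes of each family, those in both replicates, among the 1000 strongest or near a limit, genes that share a candidate, the role lists and up to 3 genes of each pathway list. The genes and lists were chosen with earlier results of these data known. Length classes, chromosomes, noncoding RNA neighbours and sls-2 copies were added after the values were seen.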

Additional observations from a re-analysis of the deposited data

How the results depend on the processing

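The count of 25 peptide genes with a candidate was 14 with a start distance of 1000 bp (22.4% of all genes by the same rule) and 11 with 500 bp (19.3% of all genes), 4 with the 1000 strongest candidates only and 0 with thresholded peaks only. It was 12 to 13 with 1 replicate left out. With the nearest start only it was 20, and 19.0% over all genes. The share of all genes lay above the interval of the peptide genes at 2000, 1000 and 500 bp and by starts alone. It lay inside that interval with the nearest start only, with the 1000 strongest, with thresholded peaks and in either single replicate list. The peptide genes had the lower share in these settings too, but on fewer counts. These settings therefore do not decide whether the difference from all genes holds. With thresholded peaks even 0 of 141 leaves the 0.200% of all genes inside the interval. The narrower windows and shorter lists hold fewer candidates by construction. By family, 3 flp genes became 1 at 1000 and at 500 bp and 0 with the 1000 strongest or the thresholded peaks, and were 2 with either replicate left out. The 13 nlp genes became 8 at 500 bp, 1 with the 1000 strongest and 0 with thresholded peaks, and were 7 with either replicate left out. The 9 insulin-like genes became 4 at 1000 bp, 2 at 500 bp, 3 with the 1000 strongest and 0 with thresholded peaks, and were 3 to 4 with 1 replicate left out. The 3 genes with a candidate in both replicates became 1, nlp-40, with summits matched within 100 bp (2.24% of all genes) and 0 with starts within 500 bp (1.93%), with all genes inside the interval. When support in a single replicate was enough they were 12 for replicate 2 (10.2% of all genes, inside the interval) and 6 for replicate 1 (10.9%, above its upper end of 9.03%). The 4 genes with one of the 1000 strongest became 7 with the 2000 strongest (10.5% of all genes, above the upper end of 9.96%) and 0 with starts within 500 bp (3.64%, above 2.58%). They were 5 in the list of replicate 2 (5.82%, inside) and 2 in that of replicate 1 (5.48%, above 5.03%). The AGACGCAG share was 0% within 50 bp of the summit. GAGAGA was in 33.3% of 12 candidates of replicate 2, above the 27.8% of that whole list, and in 16.7% of 12 of replicate 1, below 32.1%, so it stood above the whole list in replicate 2 only. In 22 of 51 alternatives the count stayed within 1.5 times its value or the share within its interval. No paired analysis was possible because there is 1 group.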
